A study of Mus musculus with 8 samples.

Results

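The 9 genes described here encode regulators of the early heart outside the Gata and T-box families, and were taken by name: Nkx2-5, Isl1, Hand1, Hand2, Mef2c, Myocd, Smyd1, Hopx and Irx4. On these 1-colour Affymetrix arrays, 24 of 45101 probe sets carry 1 of these symbols and no other, and 7 of the 9 genes have more than 1 probe set. RNA came from 3 kinds of mouse culture, in a study of parthenogenetic cells as a source of engineered heart tissue. PSC (3 arrays) are parthenogenetic stem cells of strain C57BL/6, taken at day 6 from blastocysts grown out of strontium-activated oocytes, so that both genome copies are maternal. EB_PSC (2 arrays) are aggregates of differentiating PSC, called embryoid bodies, at 15 days. The ESC group (3 arrays) is the R1 line of embryonic stem cells, grown with LIF on a feeder layer of mouse embryonic fibroblasts (MEF). Strain is given only for the PSC and EB_PSC samples, and feeders only for ESC. No embryoid bodies of ESC were analysed here, and how many PSC lines were used is not given in the labels. The labels also do not say whether the arrays of a group are separate cultures, so each p-value below rests on the spread among the deposited arrays alone, which may be technical.

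The heart forms from 2 pools of mesoderm. The first heart field gives most of the left ventricle, and the second heart field adds the outflow tract, the right ventricle and parts of the atria. Nkx2-5 is a homeodomain factor of both pools, Isl1 is a LIM-homeodomain factor of second-field progenitors, and Irx4 is a homeodomain factor of ventricular muscle. Hand1 and Hand2 are related basic helix-loop-helix factors, mainly of the left and the right ventricle. Mef2c is a MADS-box factor of muscle genes, Myocd (myocardin) is a coactivator of serum response factor in cardiac and smooth muscle, Smyd1 is a histone methyltransferase of striated muscle, and Hopx is a small homeodomain protein that does not bind DNA itself. None of them is confined to the heart: Isl1 also acts in motor neurons and pancreas, Hand1 in trophoblast, Hand2 in sympathetic neurons and limb, Mef2c in neurons, endothelium and skeletal muscle, and Smyd1 in skeletal muscle.

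All values are log2 signals as deposited. A group mean below 5.44, the median of all deposited values, is called dim here. A difference with a dim group is read here as a lower bound, since dim signals are compressed, and no fold is given for it. That reading was not tested, and it holds for the probe set in question, within the error of the fit. Of the 9 genes, each represented by its brightest probe set, 5 were dim in PSC, 5 in ESC and 1 in embryoid bodies. Pluripotency markers were lower in embryoid bodies than in either kind of stem cell, though none was dim there and Sox2 stayed at 11.3. In PSC against ESC, Zfp42 was lower by 2.73 and Pou5f1 by 0.61, and Fgf4 was higher by 0.51. The other listed pluripotency genes did not pass the test in that comparison. The mean signal of 8 pluripotency genes was 11.4 to 11.6 on PSC arrays, 11.8 to 12.1 on ESC arrays and 9.19 to 9.32 on embryoid body arrays. Pearson's r between arrays of a group, across probe sets, was 0.991 or higher. In aggregates of mixed cells, fewer cells of a type and less RNA per cell cannot be told apart.

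Heart-field genes differed in how embryoid bodies compared with PSC, and for several of them the size of the difference depended on the probe set. In embryoid bodies 6 of the 9 genes were higher than in PSC (Hand2, Myocd, Isl1, Mef2c, Hopx and Hand1), 0 were lower and 3 did not pass the test (Nkx2-5, Irx4 and Smyd1). Over all 18194 genes tested, 43.9% were called, 18.8% as higher and 25.2% as lower (limma, adjusted p below 0.05). After cyclic loess scaling the numbers called turned from 3417 higher and 4578 lower to 4185 higher and 3566 lower, and 8 of the 9 genes were then called higher. The median difference of the 9 genes was 0.80 log2 units, beside -0.09 over all genes. Of the 24 probe sets 15 were called higher, 0 lower and 9 neither, beside 34.5% of all probe sets called, 15.7% as higher and 18.8% as lower. Probe sets of 1 gene share its transcripts and are not independent. Groups of 2 or 3 arrays can fail to overlap without passing the test, as for Nkx2-5 and Irx4 here. The share of all probe sets whose groups do not overlap was not counted. By the brightest probe set, Hand2, Myocd and Isl1 rose by more than 1 log2 unit. Mef2c rose by 0.92 on its brightest probe set and by over 1 on its other 4.

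**Figure D1:**
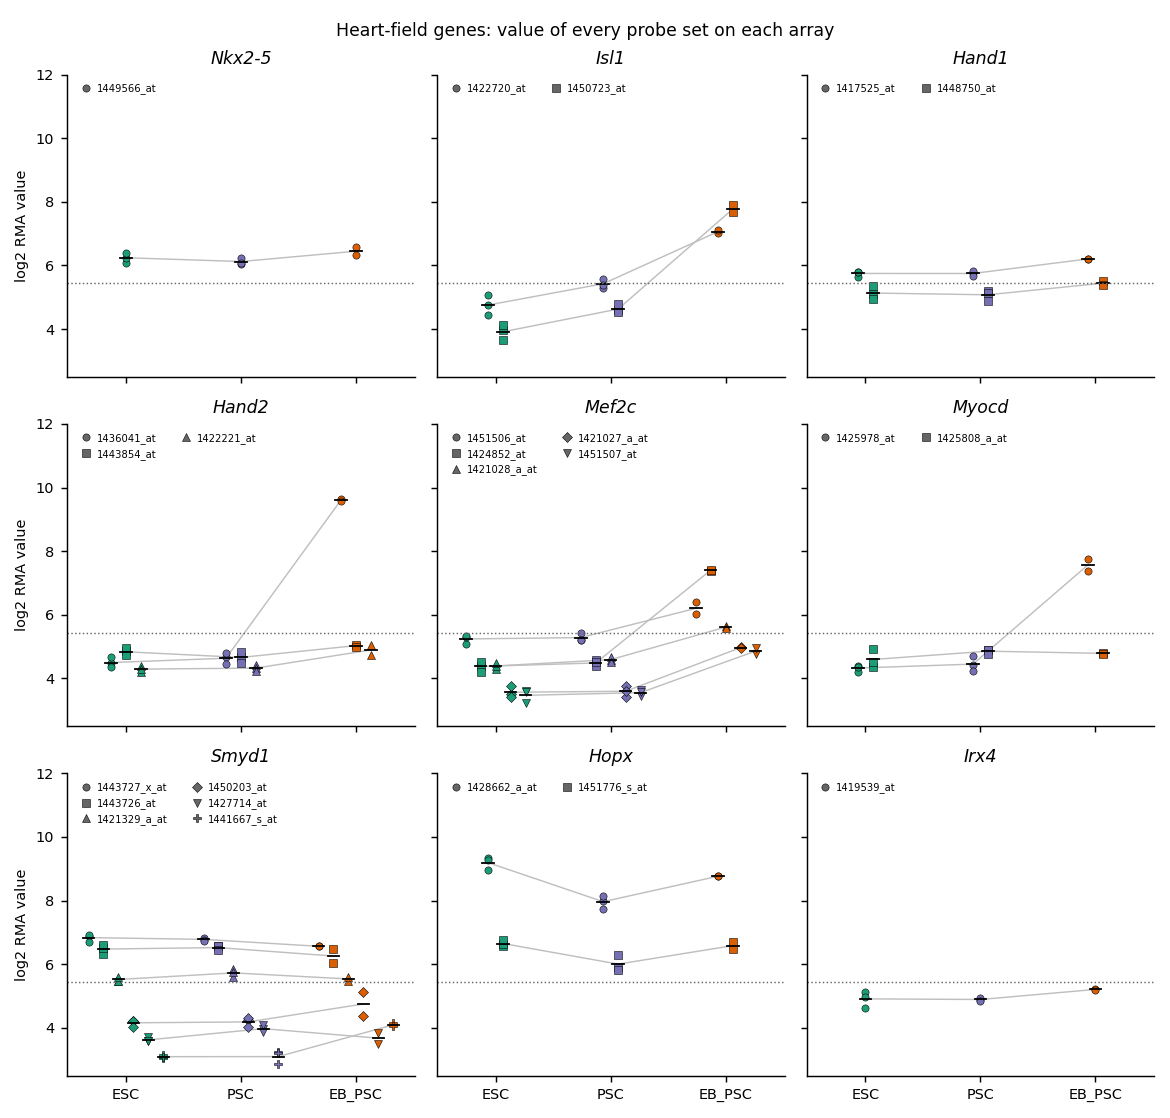
Log2 RMA value (vertical axis) of each of the 24 probe sets on each array, 1 panel per gene, with ESC, PSC and EB_PSC along the horizontal axis. Each symbol shape is a probe set, short bars are group means joined by grey lines, and the dotted line is the limit for dim probe sets at 5.44. The Hand2 probe set 1436041_at stands near 9.6 in embryoid bodies while the other Hand2 probe sets stay near 5, and Nkx2-5 stays between 6.05 and 6.57 on all 8 arrays.

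RefSeq windows of 250 bases before a start site (build GRCm38.p6) were matched by symbol for 7 of the 9 genes, with several start sites for Mef2c and Hopx. Hand1 and Myocd had no entry. The windows of 4 genes with different patterns are printed, Hand2 and Isl1 (which rose), Nkx2-5 (which did not pass the test) and Hopx (which differed between PSC and ESC as well). Capitals mark matches, on either strand, to 7 motifs. The motif of Gata factors was taken as AGATAA, that of Nkx2-5 as AAGTG and that of T-box factors as GGTGTG. For helix-loop-helix factors the E-boxes CAGCTG and also, as a separate motif, CATCTG were searched. The CArG box of serum response factor and the MEF2 site were the others. The matches in the printed windows do not overlap.
Hand2, chr8:57320733-57320982, plus strand: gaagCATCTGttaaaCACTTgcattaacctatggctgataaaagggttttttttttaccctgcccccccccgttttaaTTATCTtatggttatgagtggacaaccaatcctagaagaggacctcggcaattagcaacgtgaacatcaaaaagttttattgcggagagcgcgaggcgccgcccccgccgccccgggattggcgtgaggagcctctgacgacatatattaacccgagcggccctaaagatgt
Isl1, chr13:116309689-116309938, minus strand: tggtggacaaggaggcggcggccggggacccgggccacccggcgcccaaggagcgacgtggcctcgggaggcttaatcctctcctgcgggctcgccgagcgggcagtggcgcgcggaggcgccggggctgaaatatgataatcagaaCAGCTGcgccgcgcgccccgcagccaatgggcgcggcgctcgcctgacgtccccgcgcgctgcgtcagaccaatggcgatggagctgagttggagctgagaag
Nkx2-5, chr17:26841566-26841815, minus strand: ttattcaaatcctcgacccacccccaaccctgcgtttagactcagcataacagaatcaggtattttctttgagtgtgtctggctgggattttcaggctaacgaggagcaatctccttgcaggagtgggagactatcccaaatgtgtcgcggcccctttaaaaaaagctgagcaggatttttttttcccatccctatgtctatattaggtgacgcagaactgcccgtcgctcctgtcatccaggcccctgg
Hopx, chr5:77115124-77115373, minus strand: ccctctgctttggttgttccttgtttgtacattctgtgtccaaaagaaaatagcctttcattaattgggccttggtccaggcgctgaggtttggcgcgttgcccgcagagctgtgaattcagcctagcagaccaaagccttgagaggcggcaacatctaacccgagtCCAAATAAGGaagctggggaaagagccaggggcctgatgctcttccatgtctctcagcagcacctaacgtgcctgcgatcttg
The Hand2 window held CATCTG from 246 to 241 bases before the start, AAGTG on the other strand from 235 to 231 bases before it, and AGATAA on the other strand from 172 to 167 bases before it. Among 32851 windows of the same length in the table, 14.4% held CATCTG, 40.7% AAGTG and 9.99% AGATAA, so none of these letters is rare. The Isl1 window held CAGCTG from 103 to 98 bases before the start (13.0% of windows). The printed Hopx window, start site 1 of 2 in the table, held a CArG box from 83 to 74 bases before the start, a motif present in 1.47% of windows. The window of Hopx start site 2 held no CArG box but 2 matches to AAGTG. The Nkx2-5 window held none of the 7 motifs, which says only that these letters are not in it. The GC content was 71.2% for Isl1, 52.4% for the printed Hopx window (57.6% at start site 2) and 49.2% for both Hand2 and Nkx2-5, beside a median of 52.4% over all windows.

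Among the homeodomain genes, Isl1 rose clearly and Nkx2-5 and Irx4 did not pass the test. On its brightest probe set (1422720_at) Isl1 was at 5.30, 5.58 and 5.39 in PSC and at 7.03 and 7.10 in embryoid bodies. The groups did not overlap, and the rise was 1.64 ± 0.17 log2 units (limma adjusted p = 3.44e-06). Its other probe set (1450723_at) went from 4.59, 4.78 and 4.53 to 7.67 and 7.90, a rise of 3.15 ± 0.15 (limma adjusted p = 1.1e-08 over all probe sets). Both probe sets therefore placed the embryoid body arrays above every PSC array, and both rises are lower bounds.

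Nkx2-5, the factor most often used to mark cardiac progenitors, is measured by 1 probe set (1449566_at). It was at 6.24, 6.05 and 6.09 in PSC, at 6.33 and 6.57 in embryoid bodies and at 6.09, 6.23 and 6.41 in ESC. The PSC and embryoid body arrays did not overlap, but the lower embryoid body array lay within the range of the ESC arrays. The difference from PSC was 0.32 ± 0.14 (95% interval 0.02 to 0.62), with a limma adjusted p of 0.0766, and it passed the test only after cyclic loess scaling (0.45, adjusted p = 0.0134). Irx4, the ventricular homeodomain gene, was dim everywhere, at 4.89, 4.95 and 4.83 in PSC and at 5.22 and 5.20 in embryoid bodies. Its difference was 0.32 ± 0.15 (95% interval -0.01 to 0.64, limma adjusted p = 0.106). It passed the test with cyclic loess (0.39, adjusted p = 0.0323) and in a fit of the 2 groups alone (adjusted p = 0.0452), while over all 14 alternatives the adjusted p ran from 0.0323 to 0.26.

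The Hand genes differed in the size of the rise and in what their probe sets recorded. Hand2 had the largest measured rise of the 9 genes by brightest probe set. Its brightest probe set (1436041_at) was at 4.67, 4.79 and 4.44 in PSC and at 9.63 and 9.58 in embryoid bodies. The rise was 4.97 ± 0.14 (limma adjusted p = 2.3e-11), read as a lower bound for this probe set alone. The other Hand2 probe sets stayed dim in every group: 1422221_at rose by 0.57 ± 0.14 (adjusted p = 0.00535 over all probe sets), and 1443854_at differed by 0.37 ± 0.14 (adjusted p = 0.0503). With the mean of all 3 probe sets the rise was 1.97 (limma adjusted p = 5.39e-08). By that measure Isl1 rose further, by 2.40 (limma adjusted p = 1.95e-08). Only the embryoid body arrays make 1436041_at the brightest. In PSC 1443854_at was above it (4.66 against 4.64), as in ESC (4.84 against 4.50). Why the probe sets differ was not tested.

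Hand1 moved little. Its brightest probe set (1417525_at) was at 5.76, 5.82 and 5.66 in PSC and at 6.22 and 6.20 in embryoid bodies, which lie above every PSC and ESC array. The rise was 0.46 ± 0.12, or 1.37-fold (limma adjusted p = 0.00715). The other Hand1 probe set (1448750_at), dim in PSC, differed by 0.36 ± 0.15 and did not pass the test (adjusted p = 0.0791 over all probe sets). Of the trophoblast markers that could accompany Hand1, Elf5 and Tpbpa stayed dim at 4.06 and 3.64 in embryoid bodies. Plac1 rose by 5.11 and Cdx2 by 0.45, and Ascl2 fell by 1.25, to 7.06. Their part in the Hand1 result was not tested.

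Among the muscle regulators, Mef2c rose on all 5 of its probe sets. The probe set with the largest rise (1424852_at) went from 4.57, 4.39 and 4.50 in PSC to 7.39 and 7.41 in embryoid bodies, a rise of 2.92 ± 0.13 (limma adjusted p = 4.97e-09 over all probe sets). The brightest (1451506_at), which stands for the gene in the counts, rose by 0.92 ± 0.15 (limma adjusted p = 0.000204), and the mean of the 5 rose by 1.51 (adjusted p = 3.62e-07). The remaining 3 rose by 1.02, 1.37 and 1.31, and all 5 rises are lower bounds, since each probe set was dim in PSC. For each Mef2c probe set the embryoid body arrays lay above all PSC and ESC arrays. Separation from PSC was also seen for Nkx2-5 and Irx4, which did not pass the test.

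Myocd split between its probe sets. On 1425978_at it was at 4.41, 4.70 and 4.24 in PSC and at 7.75 and 7.39 in embryoid bodies, a rise of 3.12 ± 0.16 and again a lower bound (limma adjusted p = 3.36e-09). On 1425808_a_at the groups overlapped, all 8 arrays were between 4.35 and 4.93, and the difference was -0.07 ± 0.16 (adjusted p = 0.789 over all probe sets). The mean of the pair rose by 1.52 (limma adjusted p = 2.75e-06). Smyd1 was likewise divided. Of its 6 probe sets, 1441667_s_at rose by 1.00 ± 0.14, from 2.86, 3.23 and 3.20 to 4.14 and 4.05 (adjusted p = 0.000109 over all probe sets), and 1450203_at rose by 0.56 ± 0.20 (adjusted p = 0.0418). Both were dim in all groups, and on 1450203_at the embryoid body arrays were 0.77 apart, at 4.36 and 5.14. The 3 Smyd1 probe sets with signal above the dim limit did not pass the test, with differences from -0.27 to -0.19. Nor did the remaining 1427714_at, dim in all groups (-0.30 ± 0.14, adjusted p = 0.121 over all probe sets). The brightest, 1443727_x_at, went from 6.83, 6.77 and 6.74 to 6.57 and 6.56 (-0.22 ± 0.12, limma adjusted p = 0.176). The mean of the 6 Smyd1 probe sets differed by 0.10, the opposite sign, and did not pass the test either (adjusted p = 0.483).

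Hopx was measured above the dim limit on both of its probe sets in every group, stem cells included. On 1428662_a_at it was at 7.99, 8.15 and 7.75 in PSC, at 8.77 and 8.76 in embryoid bodies and at 9.35, 8.95 and 9.27 in ESC. On this probe set the groups did not overlap, with PSC lowest and ESC highest. Embryoid bodies were 1.74-fold above PSC (0.80 ± 0.15, limma adjusted p = 0.000762). The second probe set (1451776_s_at) also rose, by 0.58 ± 0.15 (adjusted p = 0.0102 over all probe sets). On it the embryoid body arrays (6.47 and 6.70) overlapped the ESC arrays (6.57, 6.63 and 6.75).

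**Figure D2:**
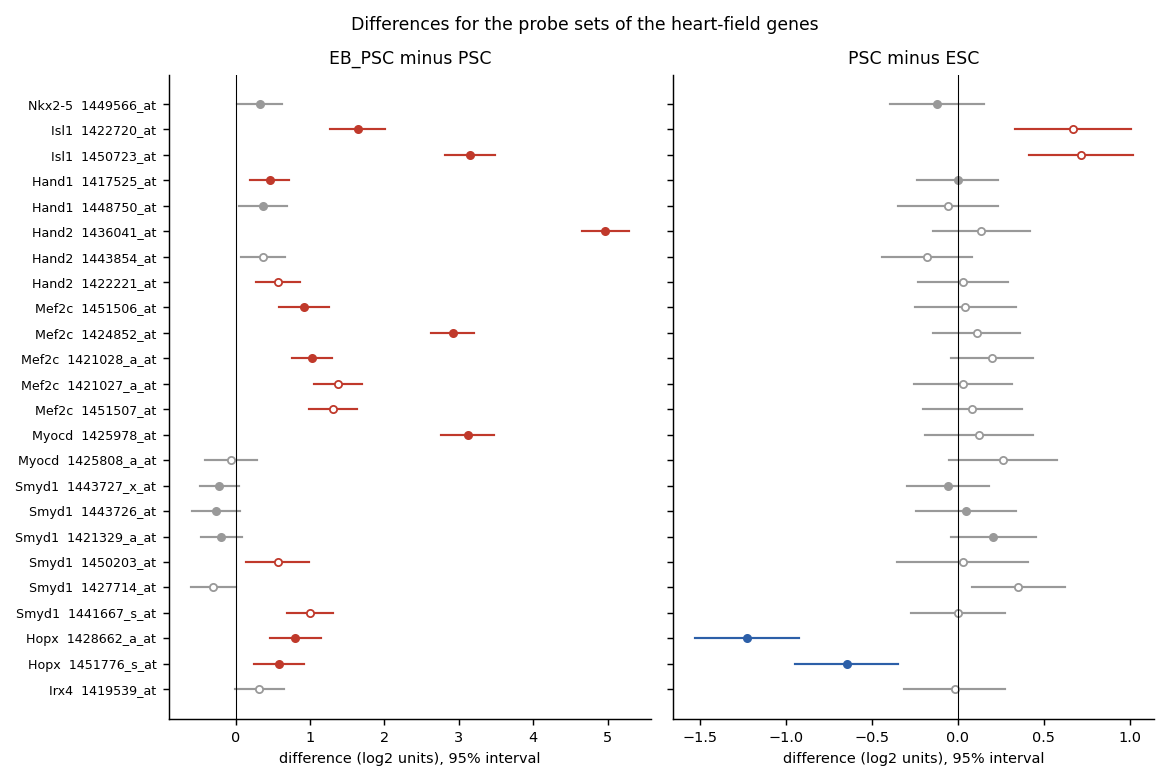
Difference in log2 units (horizontal axis) with its 95% interval for each probe set, embryoid bodies minus PSC on the left and PSC minus ESC on the right, from the fit of all probe sets. Red is higher, blue lower and grey not past the test, and open circles mark probe sets dim in both groups. On the left the largest rise is 4.97 for Hand2, and on the right only Isl1 (higher) and Hopx (lower) are coloured.

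Before differentiation, PSC and ESC differed in 2 of the 9 genes. Isl1 was higher in PSC, Hopx was lower, and the other 7 missed the threshold. Of all genes 20.8% were called, 9.07% as higher and 11.7% as lower (limma, adjusted p below 0.05). That balance of 1651 higher and 2131 lower turned to 2026 and 1870 with quantile normalization run again, and to 1974 and 1933 with cyclic loess. By probe set, 2 of the 24 were higher (both of Isl1) and 2 lower (both of Hopx), beside 15.6% of all probe sets called, 7.05% as higher and 8.5% as lower. The median difference was 0.00 log2 units, beside 0.01 over all genes. This comparison shares its PSC arrays with the one before. Cell line and culture differ between the groups along with the origin of the genome, and these cannot be told apart.

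Hopx was 2.34-fold lower in PSC than in ESC on its brightest probe set (-1.23 ± 0.14, limma adjusted p = 4.58e-05). The other probe set was at 6.27, 5.92 and 5.82 in PSC and at 6.57, 6.63 and 6.75 in ESC (-0.65 ± 0.14, adjusted p = 0.00706 over all probe sets). On both, every PSC array lay below every ESC array. Isl1 was at 4.44, 4.75 and 5.08 in ESC on 1422720_at, below all 3 PSC arrays (0.67 ± 0.15, limma adjusted p = 0.00672). On 1450723_at it was at 3.96, 4.12 and 3.67 in ESC, again below PSC (0.71 ± 0.14, adjusted p = 0.00414 over all probe sets). Isl1 was dim in both kinds of stem cell, so the difference concerns signals near the floor of the array.

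The intervals of the other 7 genes show what the arrays could have missed. For Nkx2-5 the difference was -0.12 (95% interval -0.39 to 0.15), for Hand1 0.00 (-0.24 to 0.23), and for Hand2 0.14 (-0.14 to 0.41). For Mef2c it was 0.04 (-0.25 to 0.33), for Myocd 0.12 (-0.18 to 0.43), for Smyd1 -0.06 (-0.29 to 0.18) and for Irx4 -0.02 (-0.31 to 0.27). These intervals are of the brightest probe sets, on signals that were dim for Hand2, Mef2c, Myocd and Irx4. A difference beyond 0.5 log2 units in either direction lies outside each of them. In the fit of all probe sets, the intervals of Myocd 1425808_a_at (-0.05 to 0.57) and Smyd1 1427714_at (0.08 to 0.62) reached past 0.5. Both were dim in both groups, and neither passed the test. Fibroblast markers moved in the same arrays: 7 of 9 were lower in PSC, 0 higher, and their mean signal was 5.75 to 5.97 on PSC arrays and 6.70 to 7.06 on ESC arrays. For Gapdh, a control of RNA quality, the 3' probe set minus the 5' probe set gave -0.06 to 0.00 in PSC and 0.08 to 0.17 in ESC. For Actb the lean was the other way and the ranges overlapped, with 1.04 to 1.54 in PSC and 0.69 to 1.13 in ESC. The part of feeder cells or RNA quality in the Hopx and Isl1 differences was not tested.

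Against ESC, embryoid bodies showed 5 of the 9 genes higher (Hand2, Myocd, Isl1, Mef2c and Hand1), 1 lower (Hopx) and 3 not past the test. Of the 24 probe sets 13 were called higher and 0 lower, beside 35.9% of all probe sets called and 16.4% called higher. Of all genes 44.9% were called, 19.3% as higher and 25.6% as lower, or 4435 higher and 3626 lower after cyclic loess in place of 3513 and 4652. In ESC the brightest Hand2 probe set was at 4.48, 4.35 and 4.68 and the brightest Myocd probe set at 4.21, 4.40 and 4.37, far below both embryoid body arrays. The differences were 5.11 ± 0.14 for Hand2 (limma adjusted p = 1.62e-11), 3.24 ± 0.16 for Myocd (2.16e-09), 2.31 ± 0.17 for Isl1 (1.11e-07), 0.96 ± 0.15 for Mef2c (0.000122) and 0.46 ± 0.12 for Hand1 (0.00682). With the mean of all probe sets Isl1 had the largest, 3.09, followed by 1.97 for Hand2, 1.72 for Myocd, 1.60 for Mef2c and 0.38 for Hand1. These embryoid bodies come from PSC and are the arrays already compared with PSC, so the rises are not separate evidence. On 1451776_s_at Hopx differed by -0.06 ± 0.15 (limma adjusted p = 0.809 over all probe sets). On its brightest probe set Hopx was 1.34-fold lower (-0.42 ± 0.15, limma adjusted p = 0.0378). That call was lost with a repeated quantile normalization (-0.35, adjusted p = 0.0751), cyclic loess (-0.17, 0.402), the mean of its probe sets (-0.24, 0.134) and a test over all probe sets (0.0507). It was also lost without EB_PSC 1 (0.115), EB_PSC 2 (0.123), ESC 1 (0.113) or ESC 3 (0.11). Nkx2-5 differed by 0.20 ± 0.14 (95% interval -0.10 to 0.51, adjusted p = 0.269).

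The genes around the heart-field factors were read from lists drawn up with earlier results of these data known, and are described by counts. Beside the counts for embryoid bodies against PSC, in these lists and the cell type markers below, 18.8% of all genes were called higher and 25.2% lower. The median over all genes was -0.09. Among inducers and upstream regulators of cardiac mesoderm, 12 of 18 measured rose in embryoid bodies, 3 fell (Mesp2, Nodal and Bmp10) and 3 missed the threshold, with a median difference of 1.07. Bmp2, a growth factor that induces cardiac mesoderm, rose by 5.59 ± 0.18 (limma adjusted p = 4.79e-11), and Dkk1, a secreted Wnt inhibitor, rose by 3.47 ± 0.17 (1.65e-09). Eomes, a T-box factor of early mesoderm and endoderm, rose by 3.37 ± 0.19 and Pdgfra, a receptor of cardiac mesoderm, by 2.86 ± 0.18. Mesp1, the earliest factor of cardiac mesoderm, rose by 0.65 ± 0.15 (0.00272), and Fgf10, a growth factor of the second heart field, was at 4.51 and differed by 0.13 ± 0.17 (0.594).

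Of 11 Gata and T-box partners 6 were called higher, 1 lower and 4 neither (median 0.37). Tbx20 was at 3.79, 3.60 and 4.13 in PSC and at 9.79 and 9.26 in embryoid bodies, a rise of 5.69 ± 0.18 (limma adjusted p = 3.89e-11). Gata6 rose by 2.55 ± 0.15 (1.49e-08) and Gata4 by 1.34 ± 0.14 (2.8e-06). Tbx5, the T-box factor of the first heart field and a partner of Nkx2-5, was at 5.94, 6.22 and 5.65 in PSC and at 6.10 and 5.96 in embryoid bodies, with overlapping groups (0.09 ± 0.16, 0.674). Tbx3 fell by 2.52 ± 0.15 (1.66e-08).

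Relatives and protein partners went both ways. Of 15 relatives 5 rose and 5 fell (median -0.06), and of 19 partners and co-factors 8 rose and 4 fell (median 0.11). Over all genes 18.8% rose and 25.2% fell (median -0.09). Mef2a, a further MADS-box muscle factor, was at 7.74, 7.56 and 7.65 in PSC and at 10.08 on both embryoid body arrays, a rise of 2.43 ± 0.15 (limma adjusted p = 1.77e-08). Mef2b fell by 1.39 ± 0.16 (1.01e-05), and Mef2d differed by -0.06 ± 0.16 (0.804). Irx3 rose by 2.07 ± 0.17 (3.09e-07) and Irx5 by 0.92 ± 0.18 (0.00095). Isl2 fell by 0.61 ± 0.21 (0.0339). The other falling relatives were of the Smyd family, Smyd3 by 1.27 ± 0.16 (1.91e-05), Smyd5 by 1.19 and Smyd4 by 0.72, while Smyd2 rose by 0.81. The Hand partner Tcf12, which encodes a helix-loop-helix protein of the E class, rose by 2.48 ± 0.17 (7.01e-08), and Twist1, another Hand partner, by 2.26 ± 0.32 (5.96e-05). Hey2, a Notch-responsive repressor, rose by 1.58 and Tcf4, another E-class gene, by 1.19. Srf, through which Myocd acts, differed by 0.02 ± 0.14 (0.918), and Naca, which encodes a partner of Smyd1, by 0.32 ± 0.13 (0.0621).

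Heart muscle genes, many of them targets of these factors, were called higher for 23 of 30, lower for 3 (Atp2a2, Tcap and Des) and neither for 4, with a median of 1.82. Ankrd1, a cardiac ankyrin repeat gene, rose by 8.71 ± 0.14 (limma adjusted p = 2.34e-13), the cardiac actin gene Actc1 by 6.53 ± 0.15 (2.41e-12), the troponin T gene Tnnt2 by 5.44 ± 0.14 (1.06e-11) and the ventricular myosin light chain gene Myl2 by 4.91 ± 0.31 (2.66e-08). Nppa, a peptide gene driven by Nkx2-5 with Gata4 and Tbx5, was at 3.98, 4.24 and 3.99 in PSC and at 6.59 and 7.48 in embryoid bodies (2.96 ± 0.22, 1.73e-07). Between PSC and ESC, 2 of the 30 muscle genes were higher and 0 lower, beside 9.07% and 11.7% of all genes.

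**Figure D3:**
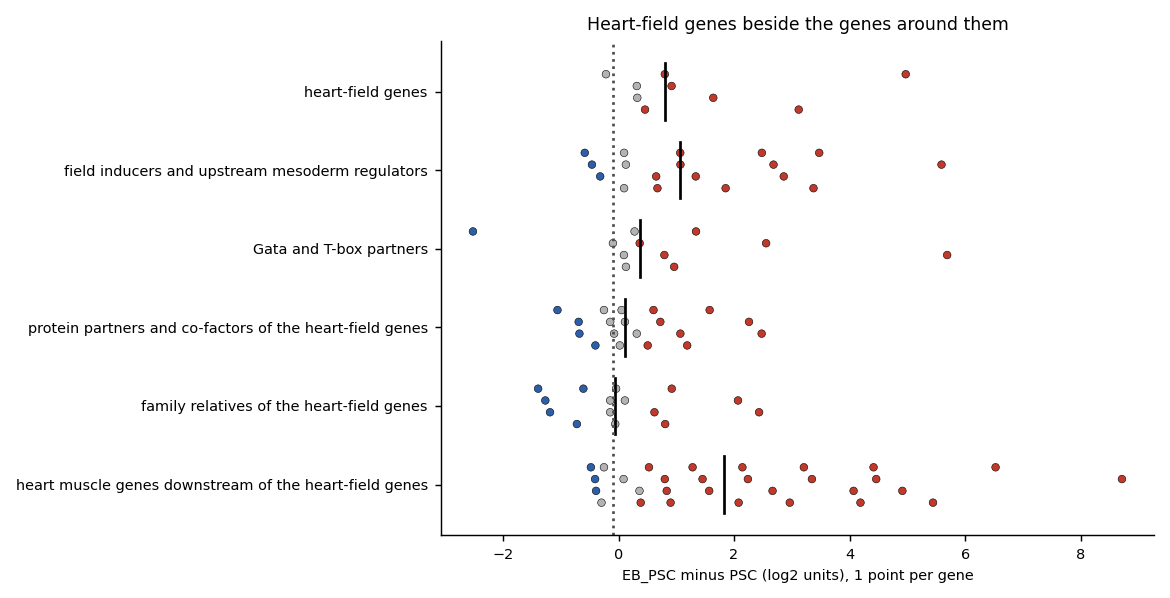
Difference between embryoid bodies and PSC in log2 units (horizontal axis), 1 point per gene, for the 9 heart-field genes and 5 lists of genes around them. Red is higher, blue lower and grey not past the limma test, black bars are list medians, the dotted line is the median of all genes, and the height of a point within its list has no meaning. The median of the heart-field genes (0.80) lies between those of the Gata and T-box partners (0.37) and the heart muscle genes (1.82).

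Markers of other cells that use some of these genes were read on the same arrays. Smooth muscle markers, the other home of Myocd, were higher in embryoid bodies for 4 of 7 (Acta2 by 5.97, Tagln by 5.73, Cnn1 by 2.75 and Lmod1 by 0.52), and Myh11, the mature smooth muscle myosin gene, was dim at 4.12. Their mean signal was 5.85 to 5.93 on PSC arrays and 7.92 to 8.04 on embryoid body arrays. Fibroblast markers rose for 7 of 9 (5.75 to 5.97 in PSC, 8.98 to 9.54 in embryoid bodies) and endothelial markers for 5 of 6 (4.98 to 5.25 against 6.33 to 6.51). Visceral endoderm markers rose for 4 of 6 and erythroid markers for 3 of 4. In these lists Thy1 (fibroblasts) fell by 1.02, Pecam1 (endothelium) by 1.05 and Amn (visceral endoderm) by 1.25. The part of these cells, and of the falling pluripotency markers, in the rises of Hand2, Myocd, Mef2c and Isl1 was not tested.

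In the lists of skeletal muscle and neurons some genes were dim in embryoid bodies and others were not. The myogenic factor genes of skeletal muscle, Myod1, Myf5, Myf6 and Myog, were all dim in embryoid bodies (5.15, 3.09, 3.85 and 4.57) and did not pass the test. Of the 8 listed skeletal muscle genes 2 rose, Acta1 by 3.99 (to 9.51) and Tnnt3 by 0.63, and Myh3 fell by 0.65. Of 8 neuronal markers 0 rose and 3 fell, and the motor neuron genes Mnx1, Lhx3 and Chat were dim at 3.43, 4.89 and 4.34. Of the other neuronal markers Stmn2 (10.62), Tubb3 (7.21) and Elavl3 (6.15) were above the dim limit in embryoid bodies, and Map2 (3.92) and Snap25 (3.24) were dim. Of 5 pancreatic endocrine markers 0 rose and 2 fell. Of 5 sympathetic and neural crest markers Ednrb rose by 4.10 and Phox2a fell by 0.86, to 6.00. Dbh (7.13) and Sox10 (6.62) were above the dim limit in embryoid bodies and did not pass the test, and Th was dim at 4.89. The part of such cells in the Hand2 rise was not tested. Cardiomyocyte markers, all of them among the 30 heart muscle genes above, were called higher for 8 of 8, with a mean signal of 5.00 to 5.09 in PSC and of 7.48 to 8.30 in embryoid bodies. The calls of Tnni3 and Actn2 were close to the threshold (limma adjusted p = 0.0456 and 0.0429) and were not made against ESC (0.351 and 0.0938). For Tnni3 the lower embryoid body array lay within the PSC range.

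**Figure D4:**
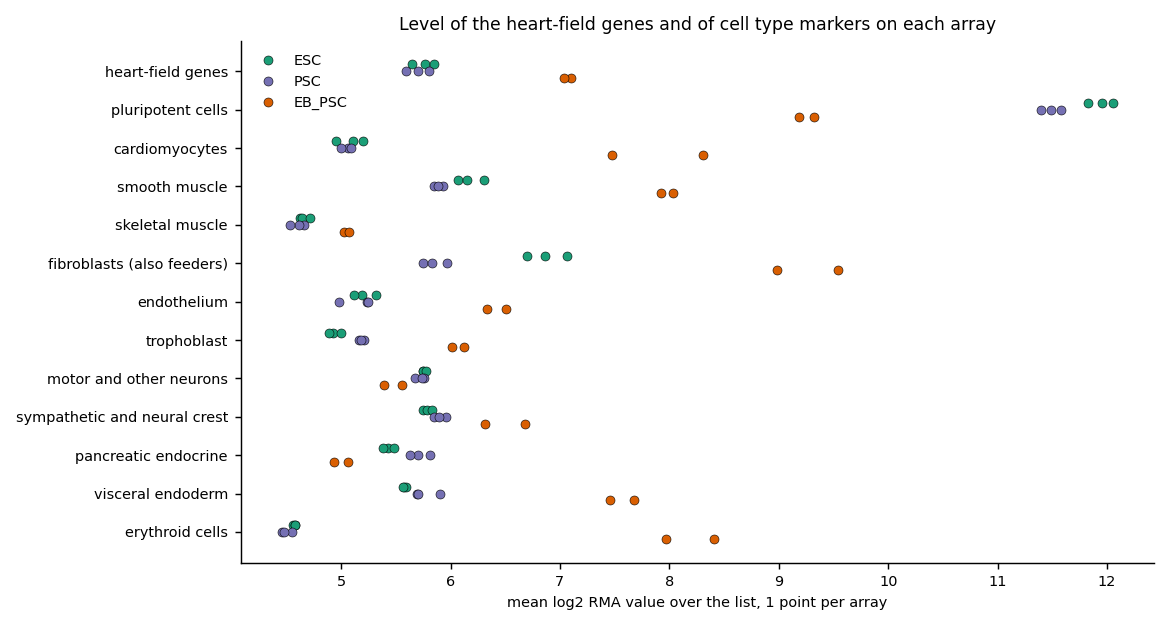
Mean log2 RMA value over each list (horizontal axis), 1 point per array, for the 9 heart-field genes and for markers of 12 cell types. Points are coloured by group. The heart-field genes stand at 7.04 to 7.10 on the embryoid body arrays and at 5.59 to 5.85 on all stem cell arrays.

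The embryoid body arrays were close to each other in their mean over the 9 genes, at 7.10 and 7.04, while the 3 PSC arrays ran from 5.59 to 5.81. Gaps of opposite sign cancel in that mean. EB_PSC 1 minus EB_PSC 2 was 0.38 for Mef2c (1451506_at), 0.37 for Myocd (1425978_at) and -0.24 for Nkx2-5. The mean over 8 cardiomyocyte markers was further apart, at 7.48 and 8.30. Among the 24 probe sets the largest gap was 0.77 (Smyd1, 1450203_at), and for Hand2 (1436041_at) it was 0.05. With 2 arrays the spread in embryoid bodies is known only roughly.

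Genes with the most similar profile were sought by the root-mean-square difference, over 8 arrays, between values centred on each gene's mean. For Hand2 these were Tdo2 (0.12 log2 units), a tryptophan-degrading enzyme gene, and Rgs5 (0.18), a gene of pericytes. For Myocd they were Cyp26a1 (0.10), which encodes a retinoic acid hydroxylase, and Nox4 (0.15). For Isl1 they were Fhl1 (0.14), a LIM domain gene of muscle, and Ccdc82 (0.15), and for Hopx they were Zfp36l2 (0.12) and Hebp1 (0.13). For Mef2c they were Casp12 (0.07) and Elk4 (0.08). Within 0.2 log2 units lay 3 genes for Hand2, 8 for Isl1, 15 for Hopx, 19 for Myocd and 390 for Mef2c. For the flatter genes the measure was not selective: 2175 genes lay within 0.2 of Hand1 (nearest Zfp521 and Siah1a), 2932 of Nkx2-5 (Pcp4 and Ap5m1) and 6205 of Smyd1 (Fgf20 and Abi3bp). Irx4 was dim in every group and was left out.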

How the data were processed

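Total RNA of 8 samples was hybridised to 1-colour Affymetrix arrays. The deposited values are log2 signals that the authors made with RMA in Bioconductor, per the labels and the submitters' processing notes. Its version and any joint normalization were not given in the sources used here. RMA hides a shift of most transcripts in 1 direction. The values ran from 2.56 to 14.9 with array medians from 5.39 to 5.47, and were used as deposited. In the platform annotation, 34958 probe sets had a single symbol, 932 had several and 9211 had none.

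For each of 18194 genes the probe set brightest on average over all 8 arrays, embryoid bodies included, was used. For Hand2 and Myocd this choice rests on the embryoid body arrays, where the chosen probe set is high. In PSC and in ESC another probe set of the gene was brighter. Group was the only term of a limma fit of all 8 arrays (version 3.58.1, R 4.3.3; lmFit and eBayes; residual degrees of freedom 5, prior 8.07). The two-sided tests had Benjamini-Hochberg adjustment over all genes and a call below 0.05. Errors after a difference are standard errors of the fit. A further fit took all 45101 probe sets. Where a sentence names a p over all probe sets, it comes from that fit. The genes and lists were chosen with earlier results of these data known. All 9 genes are described, with the 4 called genes of largest difference between embryoid bodies and PSC in each list of heart genes, and a set of paralogs and partners. Further list genes and markers were named after their values were seen. Figures used Python 3.11.15 and Matplotlib 3.10.9.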

Additional observations from a re-analysis of the deposited data

How the results depend on the processing

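The alternatives were cyclic loess, quantile normalization run again, the mean over a gene's probe sets, dropping dim or _x_at and _s_at probe sets, testing every probe set, array weights, a robust trended prior, fitting only the compared pair, a replicate block, each array left out and a threshold of 2-fold. With the last, the called genes went from 6 to 3 for embryoid bodies against PSC, from 2 to 1 for PSC against ESC and from 6 to 3 for embryoid bodies against ESC. The median difference of the 9 genes moved beyond the spread between arrays (0.13) with cyclic loess for embryoid bodies against PSC (0.97 in place of 0.80). It also did so with the filter on dim probe sets for embryoid bodies against ESC (0.71 in place of 0.46, with 8 genes left). That filter keeps a gene that reaches the dim limit in any group, and it dropped Irx4 (0.30), which lay below the median. Hand2, Myocd, Isl1 and Mef2c passed it only through the embryoid body arrays, so it is no separate support for their calls. Leaving out an array gave medians of 0.69 to 0.90, -0.04 to 0.06 and 0.41 to 0.49 in the 3 comparisons, with 6, 2 and 5 to 7 genes called. Leaving out an embryoid body array leaves 1, assumed to vary like the other groups. Over all genes, the 3782 called between PSC and ESC became 2490 without PSC 1, 2549 without PSC 2, 5693 with array weights and 550 at 2-fold. At 2-fold, 2907 in place of 7995 were called for embryoid bodies against PSC and 3282 in place of 8165 against ESC. Irx4 passed against ESC without ESC 2 (0.41, adjusted p = 0.0322). The calls of Hand2, Myocd, Isl1, Mef2c and Hand1 in both embryoid body comparisons held under every alternative other than the 2-fold threshold. So did those of Hopx between embryoid bodies and PSC, and of Isl1 and Hopx between PSC and ESC. At 2-fold the calls of Hand1 and Mef2c, of Hopx between embryoid bodies and PSC, and of Isl1 between PSC and ESC were lost. The others of these calls held.

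Replicate numbers are shared between groups, but same-numbered PSC and ESC arrays did not deviate together (r of deviations -0.25, -0.07 and -0.04). The values were -0.14 and 0.04 for PSC and EB_PSC, and 0.16 and 0.22 for the EB_PSC and ESC arrays, which are only 2 pairs, so no pairing was assumed. With the replicate block 6, 2 and 6 genes were called, with medians of 0.77, 0.00 and 0.45. Irx4 was dim in every group, which limits what its signal can show.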
